A study of Homo sapiens with 28 samples.

Results

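The clustered protocadherins are cell adhesion proteins encoded by 3 neighbouring gene groups, PCDHA, PCDHB and PCDHG, on chromosome 5. Accessible chromatin of these genes was described in myeloma cell lines. Of 154985 regions in the deposited table, 48 lay on chromosome 5 and had a PCDHA, PCDHB or PCDHG gene as the gene with the nearest transcription start, and these were all taken as members. They comprised 17 PCDHA, 14 PCDHB and 17 PCDHG regions, stood between positions 140163827 and 140864727 (GRCh37) and belonged to 37 of the 53 clustered protocadherin genes in the annotation. ATAC-seq, which marks open chromatin by where a transposase can cut it, was run on 22 untreated lines (H1112, Karpas620, KMS11, KMS12BM, KMS12PE, KMS18, KMS20, KMS21BM, KMS26, KMS27, KMS28, KMS34, L363, LP1, MM1S, OCIMY5, OPM2, PCM6, PE1, RPMI8226, U266 and XG-6). Karpas620, KMS27, L363, MM1S, OPM2 and RPMI8226 were assayed a second time on day 3 of 10 µM lenalidomide, a drug that redirects the cereblon ubiquitin ligase. Each line was assayed once per condition, so there was no replicate within a line, and lines were the unit of every test. An established line stands for 1 tumour and its time in culture, and a bulk level cannot tell open chromatin in some cells from weaker opening in all of them.

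In neurons each cell switches on a small set of clustered protocadherin promoters, which gives the cell a surface identity by which its own branches avoid each other. Each PCDHA and PCDHG alternate isoform begins at a variable first exon with a promoter of its own and is spliced to constant exons shared within the group, while each PCDHB gene is a single exon. The last variable exons of PCDHA and PCDHG, called C-type (PCDHAC1, PCDHAC2, PCDHGC3, PCDHGC4 and PCDHGC5), are less subject to this choice. Most alternate promoters carry a conserved sequence element with the core CGCT, to which the insulator protein CTCF binds, and CTCF with the cohesin ring loops them to distal enhancers. DNA methylation keeps the promoters that are not chosen silent.

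Promoter letters are shown for members with high, variable or frequently called regions, since nearly all of the clustered promoters carry the conserved core upstream of their start. The sequences are the 100 bases directly upstream of the RefSeq start. They were taken from the RefSeq promoter table of GRCh38.p14 and placed on GRCh37 by an exact match, which succeeded once each for 33 of 34 genes in that table. All are on the plus strand, written 5′ to 3′, with every CGCT in capitals. The stretch of PCDHAC1 lies just upstream of its accessible region.
PCDHA2, chr5:140174337-140174436: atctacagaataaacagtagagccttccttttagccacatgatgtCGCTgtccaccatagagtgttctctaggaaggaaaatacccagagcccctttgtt
PCDHA8, chr5:140220672-140220771: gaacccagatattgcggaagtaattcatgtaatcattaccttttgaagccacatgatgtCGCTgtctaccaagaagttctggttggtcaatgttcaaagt
PCDHAC1, chr5:140305784-140305883: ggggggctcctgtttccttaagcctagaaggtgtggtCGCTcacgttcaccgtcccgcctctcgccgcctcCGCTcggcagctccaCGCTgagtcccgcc
PCDHB5, chr5:140514688-140514787: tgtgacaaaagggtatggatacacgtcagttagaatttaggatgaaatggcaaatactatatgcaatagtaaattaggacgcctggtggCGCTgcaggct
PCDHGA1, chr5:140709981-140710080: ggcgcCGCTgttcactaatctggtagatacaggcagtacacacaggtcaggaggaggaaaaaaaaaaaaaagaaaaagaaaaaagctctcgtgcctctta
PCDHGB3, chr5:140749709-140749808: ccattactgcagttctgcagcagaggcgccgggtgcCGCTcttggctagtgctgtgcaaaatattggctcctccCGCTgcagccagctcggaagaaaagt
PCDHGA10, chr5:140792454-140792553: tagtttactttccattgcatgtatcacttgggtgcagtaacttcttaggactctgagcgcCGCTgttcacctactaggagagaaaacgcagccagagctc

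The letters around the core differed by gene group. CGCT on the sense strand was present within 250 bases upstream of the start in 12 of 13 PCDHA, 13 of 14 PCDHB and 25 of 25 PCDHG promoters (from 20 genes) in the RefSeq table, against 48.1% of all 35116 promoters there. The longer word TGTCGCT was found on the sense strand of 76.9% of PCDHA promoters and 0.69% of all promoters, as in PCDHA2 and PCDHA8 above. GGTGGCGCT was found in 85.7% of PCDHB promoters and 0.25% of all, as in PCDHB5, and GCGCCGCT in 44% of PCDHG promoters and 1.20% of all, as in PCDHGA1 and PCDHGA10. The 3 longer words all contain CGCT and were picked after the promoters had been read, so their shares describe these genes only. On either strand CGCT was in 64.8% of all promoters.

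The member with the highest level, both as a whole region (mean 10.6 CPM over the 22 untreated lines) and per kb (13.7 CPM), was distal. It lay in no gene, 9.9 kb upstream of PCDHB1 (chr5:140420302-140421071), between the constant exons of PCDHA and the first PCDHB gene, the interval in which the HS5-1 enhancer of PCDHA is known to lie. A stretch of 200 bases of this region is shown because it holds a match to the core consensus of CTCF, in capitals, on the minus strand.
Region upstream of PCDHB1, chr5:140420862-140421061: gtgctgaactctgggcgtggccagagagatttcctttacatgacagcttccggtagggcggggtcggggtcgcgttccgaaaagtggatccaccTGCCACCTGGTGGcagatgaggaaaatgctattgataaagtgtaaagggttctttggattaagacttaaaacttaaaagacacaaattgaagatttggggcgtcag

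Over whole regions that consensus was matched in 4 members, the region upstream of PCDHB1 and start regions of PCDHA4, PCDHA5 and PCDHA8. In the central 300 bases it was matched in 2.08% of members and 2.73% of all regions on either strand. The central 300 bases of the 38 start regions, defined as those within 1 kb of a transcription start, had a median of 12 CpG dinucleotides and 50.5% GC, against 14 and 59.7% over all 29459 start regions. Among them the PCDHA start regions had 17.5 CpG, PCDHG 12 and PCDHB 8.

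Levels are counts scaled to a common library total (CPM). Totals ran from 1599857 to 5564534 counts per untreated library and from 2168680 to 4248017 after lenalidomide, so 3 counts, the limit that a count of 0 allows, corresponded to between 0.539 and 1.88 CPM per untreated library. The 95% intervals given for single libraries are Wilson intervals, which reflect counting error alone. The regions nearest the starts of the plasma cell genes IRF4, PRDM1, XBP1, SDC1 and TNFRSF17 were each called in 11 or more of the 22 lines. The nearest regions of 7 B cell, T cell, monocyte and neural genes (PAX5, MS4A1, CD3E, CD14, NEUROD1, RBFOX3 and SNAP25) were each called in fewer than 11 lines.

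Few clustered protocadherin regions were called in many lines. A region was taken as called in a line where the authors' table lists a peak of that line's own library in it. By this measure 46 of the 48 members were called in at least 1 untreated line, against 91.9% of all regions, a share that follows from the table having been built from these libraries' peaks. Only 2 of 48 members (4.17%) were called in 11 or more lines, against 14.8% of all regions, and these were the distal regions upstream of PCDHB1 and PCDHB2. With a level of at least 2 CPM as the call, 20 of 48 members were open in 11 or more lines, against 41.2% of all regions, a share near the background. None of the 38 start regions was called in more than 9 lines, and their median was 3 lines, with 2 called in none and 9 in exactly 1, against 6 lines over all start regions and 14 over the 52 start regions within 1 Mb on either side of the cluster.

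**Figure D1:**
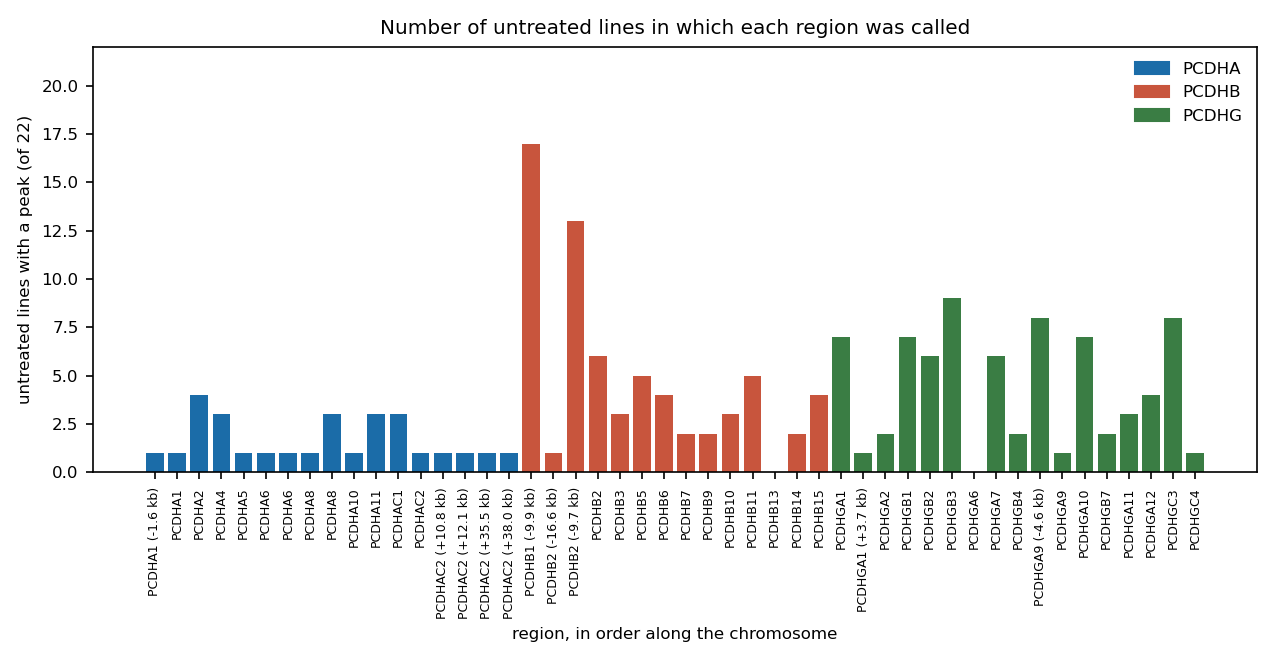
Bars give the number of the 22 untreated lines with a called peak in each of the 48 regions, in order along the chromosome, coloured by gene group. The regions upstream of PCDHB1 (17 lines) and PCDHB2 (13 lines) stand above all others, and the next is PCDHGB3 with 9.

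PCDHA regions were called in the fewest lines. Of 17 PCDHA regions, 12 were called in exactly 1 line, against 1 of 14 PCDHB regions, 3 of 17 PCDHG regions and 37.1% of all regions. The highest number of lines was 4, for the PCDHA2 start. In 10 of the 22 lines no PCDHA region was called, in 7 lines 1 was, and in 5 lines more than 1 was. The remaining calls of a line were spread over PCDHB (at least 1 region in all but 1 line) and PCDHG (in all but 2 lines). No pair of lines had the same set of called start regions. RPMI8226 had none, the other 21 lines had 21 different sets, and 112 of the 231 pairs of lines had no called start region in common. The median line had only 4 called start regions, which leaves little to share. These counts were not made for other start regions called in as few lines, so no trait of these genes follows from them. The highest overlap was 2 of 4 regions, between KMS12BM and KMS21BM. KMS12BM and KMS12PE, which share a name stem and may not be independent lines, had 2 of 10 in common. The number of members called went with depth over the 22 lines. Against the log2 total count its Pearson r was 0.69 and Spearman rho 0.53, and against all regions called its rho was 0.74. Depth as a cause was not tested, and KMS12BM and KMS12PE, with 3802586 and 3929936 counts, had 5 and 11 members called. The 3 lines with the most members called were U266 (23), KMS20 (21) and H1112 (19), whose libraries held 3658255, 4653969 and 5564534 counts. Those 3 lines made 16 of the 28 calls of PCDHA regions. Without them 34 of the 48 members were called in at least 1 of the other 19 lines, among them 10 PCDHA regions, 8 of these in exactly 1 line.

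PCDHA starts had low medians, and the highest lines differed from start to start. The PCDHAC1 start (chr5:140305937-140306733), a C-type promoter, ranged from 0 to 30.0 CPM with a median of 0.607. Its highest value, in KMS26, rested on 49 counts (interval 22.7 to 39.6 CPM) and made up 77.8% of all PCDHA counts of that line. KMS20 followed at 12.5 CPM, and no other line exceeded 6.11 CPM. The PCDHA4 start (chr5:140186523-140187413) ranged from 0 to 28.1 CPM with a median of 1.02. PE1 was highest (45 counts, interval 21 to 37.6), U266 had 15.6 and KMS34 13.8 CPM, and the other 19 lines lay at or below 4.17 CPM. In PE1 this region held 72.6% of the PCDHA counts and in KMS34 57.1%, so that a single region made up over 50% of the sum in 3 lines.

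Another pair of promoters was highest in KMS28. The PCDHA8 start (chr5:140220672-140221578) ranged from 0 to 25.5 CPM with a median of 2.02, and the PCDHA11 start (chr5:140248339-140249180) from 0 to 22.3 CPM with a median of 2.28. KMS28 had the highest value of both, with intervals of 19.6 to 33.2 and 16.8 to 29.5 CPM. The next lines were L363 with 9.18 CPM at PCDHA8 and H1112 with 9.34 CPM at PCDHA11. The PCDHA2 start (chr5:140174340-140175115) ranged from 0 to 15.9 CPM with a median of 2.04, with U266 highest and MM1S next at 11 CPM. PCDHA4, PCDHA8, PCDHA11 and PCDHAC1 tie at 3 called lines each. Reads of PCDHA2, PCDHA4, PCDHA8 and PCDHA11 may be hard to place, since between 21.3% and 27.7% of the words of 31 bases in these regions occur elsewhere in GRCh37, which is not so for PCDHAC1 (0%).

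Away from the starts, regions of the PCDHA group were called in single lines. These were picked after their values had been seen. PCM6 had 13.9 and 14.4 CPM in the regions 10.8 and 12.1 kb downstream of the PCDHAC2 start, where the medians over the 22 lines were 0.300 and 0.388 CPM and no other line exceeded 1.89 CPM. A region in no gene, 1644 bases upstream of PCDHA1, was highest in OPM2 at 7.83 CPM, against a median of 0.915. The highest of the PCDHAC2 regions by mean, 35.5 kb downstream of its start, ranged from 0 to 4.94 CPM with a median of 0.923 and was called in KMS20 alone. The PCDHAC2 start itself reached 5.36 CPM, in KMS21BM.

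**Figure D2:**
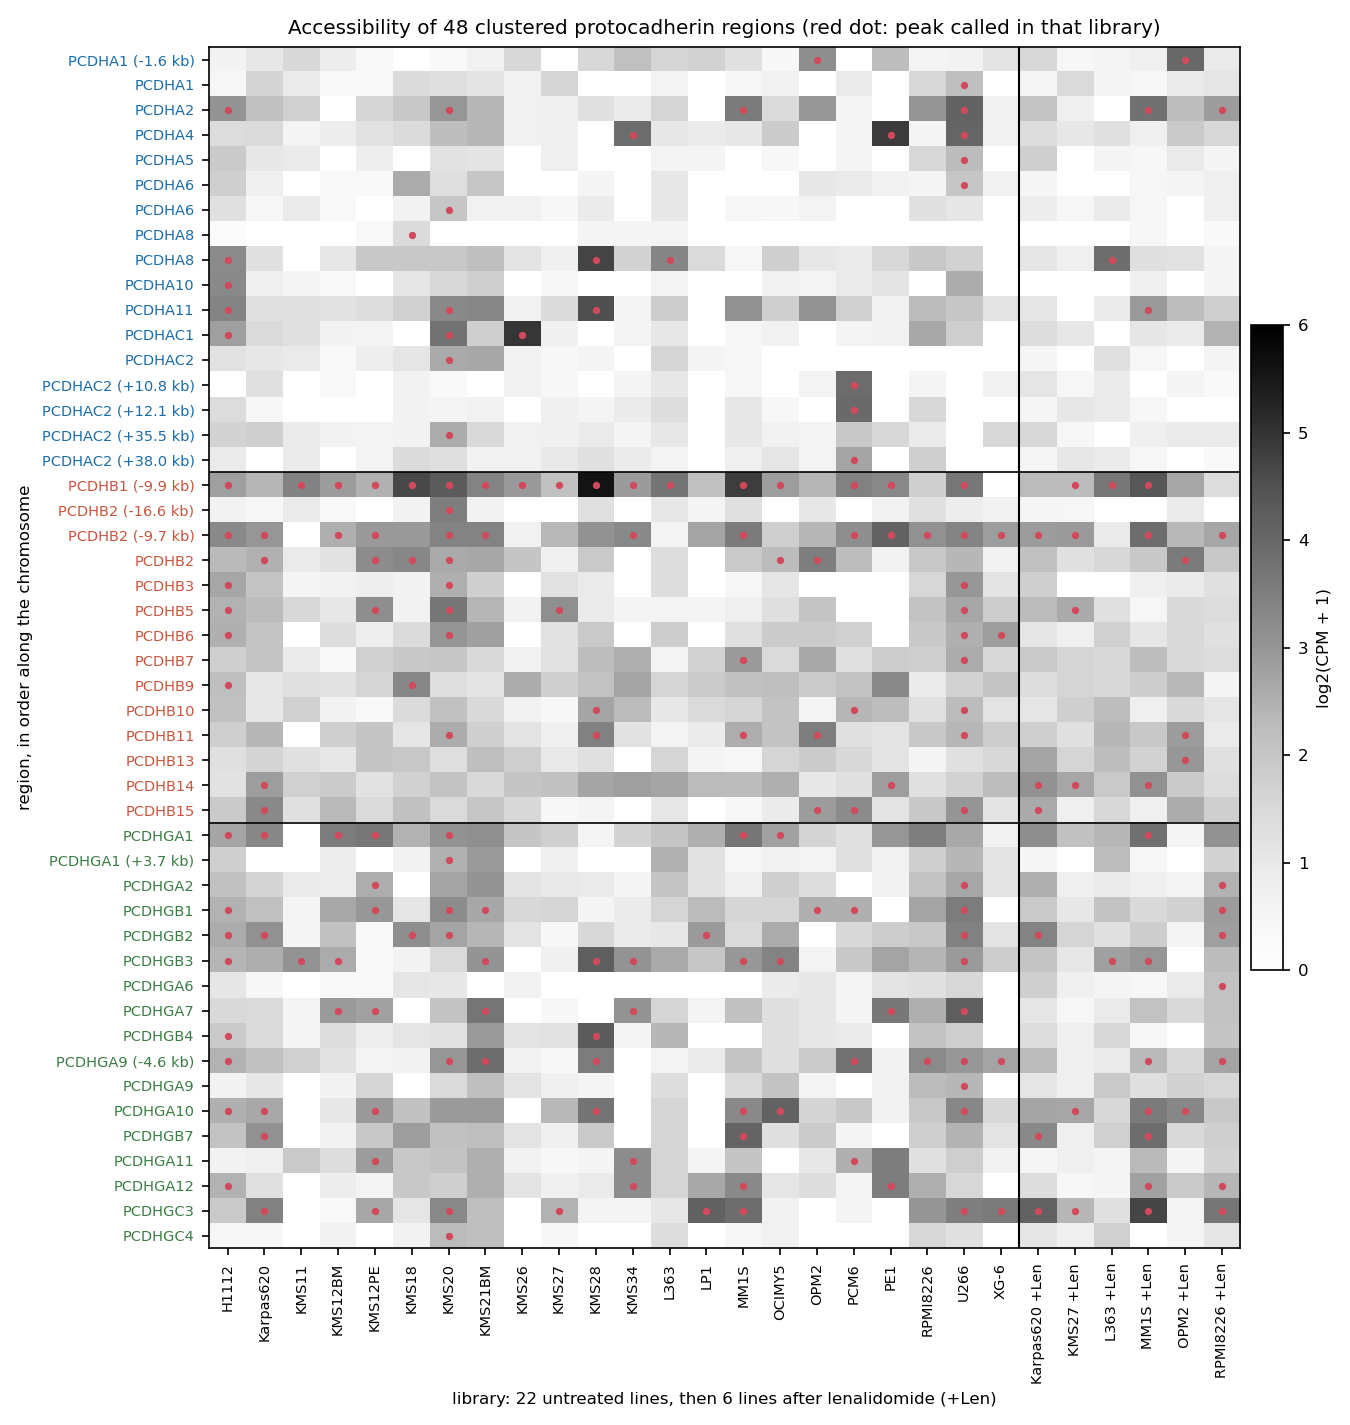
Shading gives log2(CPM + 1) of the 48 regions (rows, in order along the chromosome) in the 22 untreated lines and, right of the vertical line, in 6 lines after lenalidomide; red dots mark called peaks and distances mark regions over 1 kb from a start. The starts of PCDHAC1, PCDHA4 and PCDHA8 are darkest in KMS26 (30.0 CPM), PE1 (28.1 CPM) and KMS28 (25.5 CPM), and each carries a dot in 3 untreated lines. The region upstream of PCDHB1 carries a dot in 17 of the 22 untreated lines.

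The PCDHB group held the members with the highest levels, in distal regions. The region upstream of PCDHB1 ranged from 0 to 47.3 CPM with a median of 6.61 (mean 10.6 ± 10.6 SD, n = 22). KMS28 was highest with 102 counts (interval 39.0 to 57.4 CPM), followed by MM1S at 27.5 and KMS18 at 24.1 CPM, and XG-6 had no count in a library in which 3 counts are 1.87 CPM. It was the highest PCDHB region in 12 of 22 lines. The region 9.7 kb upstream of PCDHB2 (chr5:140463993-140464521) ranged from 0 to 16.3 CPM with a median of 6.83, was highest in PE1, and had 0 counts in KMS11. It was also the more even of the pair, with an SD of 3.78 CPM. A further distal region, 16.6 kb upstream of PCDHB2, had the lowest mean of the group (1.01 CPM) and was called in KMS20 alone, at 10.3 CPM.

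Single PCDHB starts were low. The PCDHB2 start (chr5:140474066-140474484) ranged from 0 to 10.4 CPM with a median of 2.94 and was called in 6 lines, with OPM2 and KMS18 (8.97 CPM) highest. The PCDHB5 start (chr5:140514666-140515205), whose promoter is printed above, ranged from 0 to 11.8 CPM with a median of 1.66 and was called in 5 lines, with KMS20 highest, KMS12PE at 7.89 and KMS27 at 7.76 CPM. The 4 members with counts in all 22 lines were the starts of PCDHB7, PCDHB9, PCDHB10 and PCDHB14. Among the 38 start regions of the cluster PCDHB9 had the highest mean per kb (9.56 CPM). PCDHB13 was called in no untreated line and had a mean of 1.64 CPM, and 83.9% of the words of its region are repeated elsewhere.

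PCDHG starts ranged from 0 to 9 called lines each. The PCDHGA1 start (chr5:140709741-140710493), the first of the group, had the highest mean of the group as a whole region (5.30 ± 3.72 CPM SD, n = 22), though per kb (7.04 CPM) it was below PCDHGA10 (8.18 CPM), and it ranged from 0 to 11.7 CPM with a median of 4.99. MM1S, KMS12PE (11.5) and KMS12BM (10.8 CPM) were highest. The PCDHGB3 start (chr5:140749497-140750163) ranged from 0 to 17.6 CPM with a median of 4.58 and was called in 9 lines, with KMS28 highest and OCIMY5 next at 9.43 CPM. The C-type PCDHGC3 start (chr5:140855249-140856245) was the most variable member of all by the SD of log2(CPM + 1), 1.48, and ranged from 0 to 16.5 CPM with a median of 1.91. LP1, MM1S (13.7) and XG-6 (11.2 CPM) were highest, and 4 lines had no count there. In LP1, which had the lowest PCDHA and PCDHB sums of all lines, the PCDHGC3 start held 37.3% of the PCDHG counts.

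The PCDHGA7 start (chr5:140762101-140762681) ranged from 0 to 17.5 CPM with a median of 1.77 and was highest in U266, KMS21BM (11.9) and PE1 (11.3 CPM). The PCDHGA10 start (chr5:140792491-140793024) ranged from 0 to 16.2 CPM with a median of 3.10 and was highest in OCIMY5 and KMS28 (12.1 CPM). High lines thus differed from promoter to promoter within the group, and 11 different regions were the highest PCDHG region of some line. The PCDHGC4 start reached 3.87 CPM, in KMS20, and no region was assigned to PCDHGC5. A region that the deposited annotation places in an intron, 4.6 kb upstream of PCDHGA9, was called in 8 lines. It ranged from 0 to 13.7 CPM with a median of 2.45, and 51.5% of its words are repeated elsewhere. Whether it holds the start of a clustered gene without an assigned region, such as PCDHGB5, was not tested. It was therefore left out of all counts and comparisons of start regions. RPMI8226, which had no called start region, was among its 8 lines. PCDHGB4 (18.1 CPM in KMS28, median 1.26) and PCDHGB7 (15.8 CPM in MM1S, median 2.2) were picked after their values had been seen, with 20.6% and 43.5% of their words repeated.

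A call and a level did not always go together. The intronic region 270 bases upstream of PCDHA8 was called in KMS18 at 1.68 CPM, and the PCDHGA11 start was not called in PE1 at 10.6 CPM. Of the 1056 values of 48 members in 22 lines, 169 were called (16%, against 21.2% over all regions) and 191 were 0. Of all members, 3 had a mean of 5 CPM or more, and 12 had a highest line over 10 times their median line.

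Per kb the cluster was less accessible than its surroundings in every line. The summed CPM of the members divided by their 22.2 kb had a median of 5.25 CPM per kb over the 22 lines (2.33 in KMS11 to 10.3 in U266), and that of the 178 other regions within 1 Mb had a median of 16.5 (10.3 in KMS12PE to 23.2 in Karpas620). On the log2 scale, with 1 CPM added to each sum, the cluster was 1.59 lower ± 0.12 (SE, n = 22 lines), in 22 of 22 lines (sign-flip permutation test of 100000 draws, two-sided, p = 2e-05, the smallest these draws can give, adjusted over 9 comparisons p = 6e-05). Of the 52 start regions in the flanks 27 were called in 11 or more lines, against 0 of the 38 in the cluster. Whether such starts account for the gap was not tested. Between start regions alone the gap was 2.39, between regions over 1 kb from a start 0.45, and with the median over regions in place of the sum 0.53. Across lines the log2 levels per kb of cluster and flanks had a Pearson r of 0.36 and a Spearman rho of 0.38 (n = 22), both taken from the same libraries.

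PCDHA was the least accessible group. Its level per kb had a median of 3.51 CPM per kb (0.757 in LP1 to 7.52 in KMS20), that of PCDHB 6.92 (3.41 in LP1 to 14.7 in KMS28) and that of PCDHG 5.71 (1.67 in KMS26 to 12.3 in U266). PCDHA was 1.08 ± 0.16 (SE) below PCDHB on the log2 scale, in 21 of 22 lines (permutation p = 2e-05, the smallest possible, adjusted p = 6e-05), and 0.70 ± 0.21 below PCDHG, in 18 of 22 (permutation p = 0.0045, adjusted p = 0.0082). PCDHB was 0.39 ± 0.13 above PCDHG, in 16 of 22 lines (permutation p = 0.0084, adjusted p = 0.013), but this was not held by the starts: between start regions alone the difference was 0.17 (permutation p = 0.27).

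**Figure D3:**
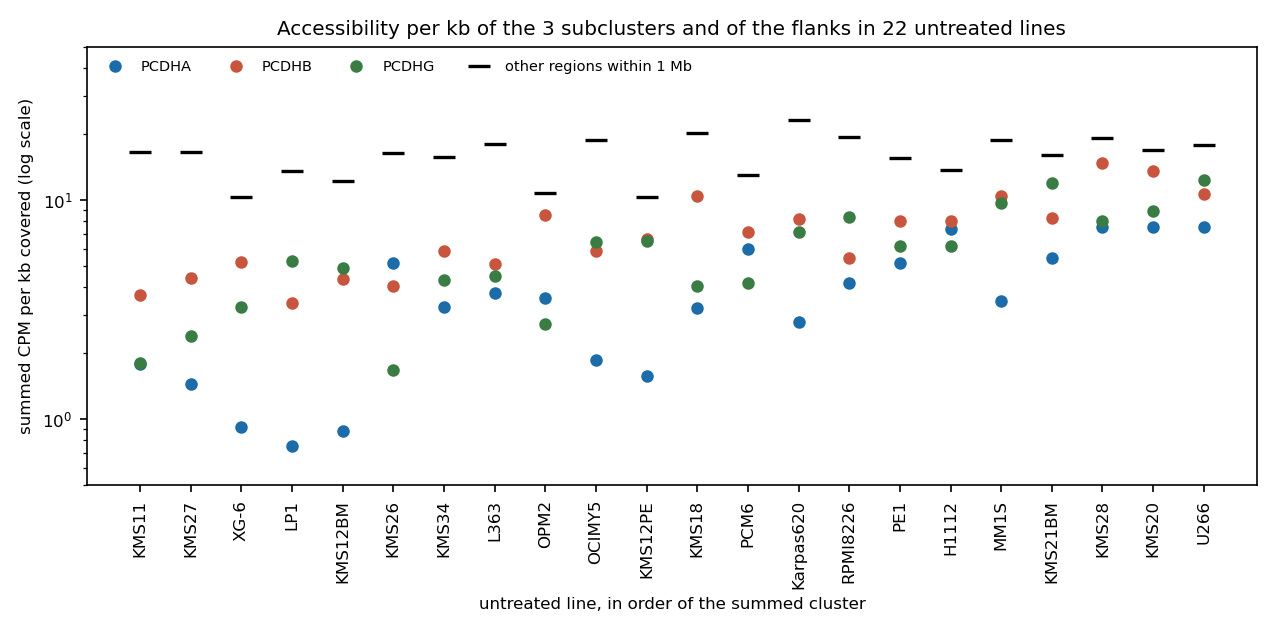
Points give the summed CPM per kb of PCDHA, PCDHB and PCDHG regions and bars that of other regions within 1 Mb in each untreated line, on a log axis, with lines ordered by the whole cluster. PCDHA has the widest range, 0.757 to 7.52 CPM per kb, and the flanks lie above all 3 groups in every line.

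The share of regions called gave the same order for PCDHA. On average 7.49% ± 10.8 (SD, n = 22 lines) of PCDHA regions were called in a line, 21.8% ± 16 of PCDHB and 19.8% ± 15.6 of PCDHG regions. PCDHA was 14.3 percentage points below PCDHB, in 21 of 22 lines (permutation p = 2e-05, the smallest possible, adjusted p = 6e-05), and 12.3 below PCDHG, in 17 of 22 (permutation p = 0.0001, adjusted p = 0.00022). These sizes depended on the call: over start regions alone PCDHA was 6.16 points below PCDHB (permutation p = 0.015) and with at least 2 CPM 33.9 points below PCDHB and 24.9 below PCDHG (permutation p = 2e-05 each). PCDHB and PCDHG differed by 1.97 ± 1.94 points (SE; permutation p = 0.32, adjusted p = 0.32), while PCDHB minus PCDHG was -4.82 points over start regions alone (permutation p = 0.1) and 9.03 points with at least 2 CPM as the call (permutation p = 0.041).

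Regions of C-type genes tended to lower levels than those of alternate isoforms, without passing the test. The 8 regions of C-type genes had a median of 3.35 CPM per kb and the 26 other PCDHA and PCDHG regions 4.68. These 8 were assigned by nearest start and are not all promoters. They include intronic regions 10.8, 12.1, 35.5 and 38 kb downstream of the PCDHAC2 start. The log2 difference was -0.61 ± 0.31 (SE), with C-type lower in 16 of 22 lines (permutation p = 0.063, adjusted p = 0.071). This call was not firm: without KMS26 the difference was -0.75 (permutation p = 0.015), and it also passed without LP1 (-0.68), PCM6 (-0.71) or XG-6 (-0.69). Between C-type and alternate start regions alone the log2 difference was -0.73 (permutation p = 0.063). Start regions as a whole were 0.34 ± 0.14 below the 10 other members per kb (16 of 22 lines, permutation p = 0.021, adjusted p = 0.027), where the distal regions upstream of PCDHB1 and PCDHB2 weigh most, and with the median over regions in place of the sum the difference turned to 0.15 above (permutation p = 0.33).

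Lines with a high sum of one gene group tended to have a high sum of the others. Over the 22 lines the log2 sums of PCDHA and PCDHB had a Pearson r of 0.69 (Spearman rho 0.66), PCDHB and PCDHG 0.62 (0.60) and PCDHA and PCDHG 0.38 (0.43), with each pair of sums taken from the same libraries. With the log2 total count r was 0.03 for PCDHA, 0.20 for PCDHB and 0.36 for PCDHG. U266 held the highest value of 9 of the 48 members, KMS20 and KMS28 of 6 each, and PE1 and KMS21BM of 5 each, whereas 8 lines held none.

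The lists of other genes are read against all start regions, of which 41.1% were called in 11 or more lines. Of 16 genes for chromosome architecture and silencing, 15 had a region, and 13 of these were called in 11 or more lines. No region had CTCF as the gene with the nearest start, which does not show that its promoter was closed. SMCHD1, a silencing factor of the structural maintenance family, had 3.36 CPM on average in its nearest region and was called in 4 lines. That region lay at -697 bases from the start assigned to it. Whether this is the main start of the gene was not checked. Of 12 genes beside the cluster 9 had a region and 7 of these were called in 11 or more lines. TAF7, a general transcription factor subunit gene that sits between PCDHB and PCDHG, had 36.4 ± 10.8 CPM (SD, n = 22) at its start and was called in 22 of 22 lines. Of 10 protocadherin genes outside the cluster, 5 were called in 11 or more lines, which is near that share, among them PCDH1 with 21.9 ± 9.42 CPM in 19 lines and PCDH9 with 44.9 ± 34.2 CPM in 18 lines.

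Lenalidomide changed no clustered protocadherin region at the threshold used. With the line as a block, edgeR's quasi-likelihood test called 2036 of 37732 regions (5.40%) at an adjusted p below 0.05. Only 7 members had enough counts to be tested, and 0 of these were called (1 at an unadjusted p below 0.05, 0 of 5 with DESeq2). Without the filter on low counts 0 of 48 members were called, against 2.64% of all regions, with 4 members at an unadjusted p below 0.05. The other members had too few counts to pass that filter.

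The smallest p values among the tested members belonged to PCDHGC3, PCDHGA10 and PCDHB14. The PCDHGC3 start had 9.71 CPM untreated and 16.4 after lenalidomide in Karpas620, 4.38 and 4.10 in KMS27, 1.02 and 1.38 in L363, 13.7 and 25.0 in MM1S, 0 and 0.452 in OPM2, and 7.08 and 11.8 in RPMI8226. It was thus higher after the drug in 5 of 6 lines, while the ranges of both conditions overlapped, with a log2 fold change of 0.68 ± 0.25 (SE) and an edgeR adjusted p of 0.11. The log2 fold change of PCDHGA10 was 0.48 ± 0.28 (higher in 4 of 6 lines, edgeR adjusted p = 0.40) and that of PCDHB14 0.41 ± 0.30 (higher in 5 of 6 lines, edgeR adjusted p = 0.53). PCDHB14 went from between 1.04 and 6.24 CPM untreated to between 1.65 and 7.62 CPM after the drug.

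PCDHB13, which only the fit without a filter could test, came closest to the threshold there. Its values were 2.08 and 5.48 CPM in Karpas620, 1.01 and 2.05 in KMS27, 2.04 and 3.69 in L363, 0.343 and 2.18 in MM1S, 2.61 and 6.78 in OPM2, and 0.472 and 1.41 in RPMI8226, untreated and after lenalidomide. All 6 lines were higher after the drug, with a log2 fold change of 1.39 ± 0.43 (SE) and an edgeR adjusted p of 0.0502. It was singled out after its values were seen, rests on few counts, and has the most repeated words of all members. The distal region upstream of PCDHB1 had a log2 fold change of -0.16 ± 0.24 (edgeR adjusted p = 0.81) and that upstream of PCDHB2 0.12 ± 0.26 (edgeR adjusted p = 0.88).

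Summed by group, no change after lenalidomide passed the test. PCDHA sums ran from 10.8 to 31.2 CPM in the 6 untreated and from 8.55 to 30.7 CPM in the treated libraries, with a mean log2 change of -0.15 ± 0.11 (SE, n = 6 lines, exact sign-flip test, two-sided, p = 0.19, adjusted over 3 sums p = 0.28). PCDHB sums ran from 28 to 66.3 and from 24.0 to 58.8 CPM, with a change of -0.06 ± 0.11 (exact p = 0.69, adjusted p = 0.69). PCDHG sums ran from 20.2 to 81.7 and from 23.3 to 94.4 CPM, with a change of 0.12 ± 0.05, higher in 5 of 6 lines (exact p = 0.094, adjusted p = 0.28). The smallest p that 6 lines allow is 0.0312. Of all regions with enough counts, 5.40% passed edgeR's test. Among them were 0 of 14 architecture and silencing genes, 0 of 8 neighbours, 0 of 6 other protocadherins and 0 of 5 plasma cell markers. These lists are too short to be told apart from that share. Of 2 other markers RBFOX3, a neuronal splicing factor gene, rose (log2 fold change 1.00, edgeR adjusted p = 0.021).

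**Figure D4:**
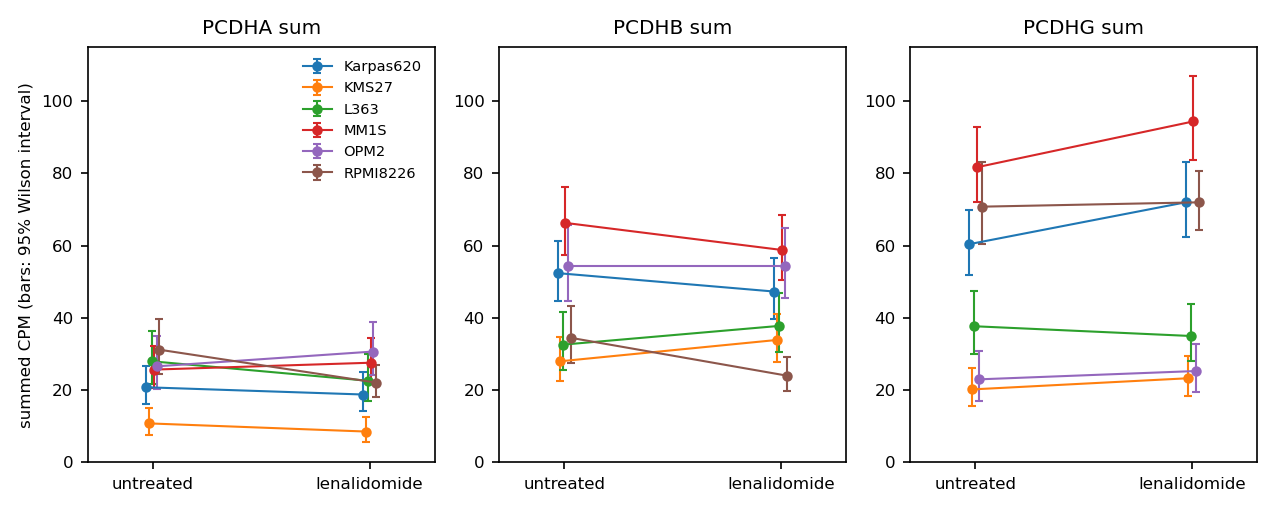
Each line joins the summed CPM of a cell line without and with lenalidomide for PCDHA, PCDHB and PCDHG, with 95% Wilson intervals for counting error. PCDHG is higher after the drug in 5 of 6 lines, and mean log2 changes are -0.15, -0.06 and 0.12.

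Each line's pattern over the members was found again in its treated library. After the mean over the 6 lines had been taken from each region, the log2(CPM + 1) profile of a line's untreated library over the 48 members had a Pearson r between 0.65 and 0.84 with its own lenalidomide library (median 0.72) and between -0.37 and 0.12 with those of other lines (30 combinations, median -0.14). The centring itself pushes values with other lines below 0 where the own value is high, so their sign is not a separate result. Every one of the 6 lines had its highest r with its own treated library. The same was seen over the 178 flanking regions (0.56 to 0.86) and over all regions (0.60 to 0.80), and regions within a library share its depth. Of 32 calls of members in the 6 untreated libraries, 25 were made again after lenalidomide, where 41 were made in all. The same share was not taken over other regions, so it shows no trait of the members. L363 kept its PCDHA8 start at 9.18 and 13.8 CPM, MM1S its PCDHGB7 start at 15.8 and 13.8 CPM and its PCDHA2 start at 11 and 12.7 CPM, and OPM2 its region upstream of PCDHA1 at 7.83 and 14.9 CPM. These examples were picked after their values had been seen, and others fell. The PCDHB11 start went from 10.4 to 6.33 CPM in OPM2, and the PCDHB15 start from 8.67 to 5.09 CPM in Karpas620. RPMI8226 went from 2 to 9 called members while its total count went from 2117764 to 4248017.

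**Figure D5:**
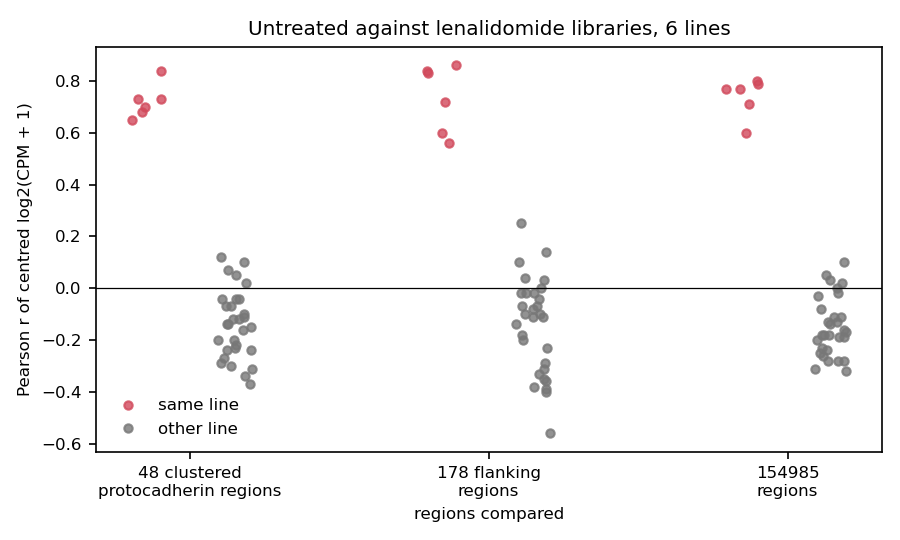
Points give Pearson's r between an untreated library and the lenalidomide library of the same line (red, 6 points) or of another line (grey, 30 points), over 3 sets of regions, after centring each region on its mean over the lines. All same-line values, from 0.56 upward, lie above all other-line values, which reach 0.25. The centring itself pushes other-line values below 0.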

How the data were processed

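Nuclei of 28 myeloma cultures were assayed by ATAC-seq. The authors aligned reads to GRCh37 with Bowtie2 2.2.6, marked duplicates with SAMtools 1.7, called peaks per library with MACS2 2.1.0.20151222 at a q of 0.01, merged them into 154985 regions and deposited raw counts per region. Whether ends were shifted or duplicates removed is not given in the sources used here. The other table deposited by the authors holds whole numbers from 0 to 4, which the file does not define; values above 0 were read as a peak of that library. CPM are counts scaled to the library's total in regions. A deposited table of reads scaled the same way equals CPM and was not used.

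The members, gene lists, tests and alternatives were chosen with earlier results of these data known. Sums over regions were compared within lines by sign flips (100000 draws for 22 lines, exact for 6) with a pseudocount of 1 CPM and Benjamini-Hochberg adjustment (scipy 1.17.1). The comparison of lenalidomide used edgeR 4.0.16 (TMM, filterByExpr, line as a block, quasi-likelihood test) and was tested on simulated data. Untreated and treated libraries were paired by the cell line in their labels. DESeq2 1.42.0, other scalings and filters, and each line left out were alternatives. Regions named are, per gene group, the 3 highest by mean, the 3 most variable, those called in most lines, the highest of each C-type gene and the 3 smallest p after lenalidomide. Repeated words are the 31-base words of a region found again anywhere in GRCh37. Genes were taken from GENCODE and promoters from RefSeq. A further gene of the marker list is not reported here.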

Additional observations from a re-analysis of the deposited data

Results flagged for a closer look

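Sets of 6 lines were searched for a value far from the others (Dixon's test): the 3 group sums after lenalidomide, the changes of these sums and the changes of the 3 tested members with the smallest p, 9 sets in all, of which chance alone would flag about 1 in 20. The change of the PCDHGA10 start in OPM2, 1.7 on the log2 scale (from 2.09 to 9.04 CPM), stood apart from the other 5 lines, which lay between -0.10 and 0.36.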

How the results depend on the processing

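Leaving out the line as a block gave 0 calls among 37732 regions and among the members (440 regions at an unadjusted p below 0.05), so the pairing decides the calls over all regions; the count of 0 members was the same under all alternatives with a member to test, and at least 10 counts in each library left none. Over start regions alone PCDHB minus PCDHG was 0.17 per kb and -4.82 points of share called, and with at least 2 CPM as the call it was 9.03 points. By that call 20 members, in place of 2, were open in 11 or more lines. C-type minus alternate isoforms was -0.76 with a pseudocount of 0.1 and -0.47 with the median over regions, both past p = 0.05, and start minus other members turned to 0.15 with the median. The cause of these shifts was not tested. With single lines left out, C-type minus alternate ranged from -0.75 to -0.50, and the change of the PCDHB sum from -0.12 to 0.03, reversed without RPMI8226. Without H1112, KMS20 and U266, added after the data were seen, the cluster was 1.7 below its flanks. With KMS12BM and KMS12PE taken as 1 line, cluster minus flanks was -1.59 and PCDHA minus PCDHB -1.04 (permutation p = 2e-05 each). In that setting PCDHA minus PCDHG was -0.63 (permutation p = 0.0081) and C-type minus alternate -0.56 (permutation p = 0.092). Of 329 recomputed values 317 were classed as unchanged, among them plain counts, which have no direction or threshold. One such count, of members called in at least 1 untreated line, fell from 46 to 34 without H1112, KMS20 and U266. Most members rest on few counts per library, and whether a closed promoter is fully closed was not detectable at this depth.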
